A study of Mus musculus with 4 samples.

Results

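IN6 was one of 12 subtypes of inhibitory neuron that the authors named in single nuclei of the mouse superior colliculus, the layered midbrain structure that receives visual input and steers the eyes and head. Its members were taken as every nucleus that the deposited metadata assign to the subtype IN6, without any choice by gene level. They numbered 227 of 9724 nuclei, and the other 11 inhibitory subtypes held 3232. The tissue came from C57BL/6J mice at embryonic day 19 (E19) and postnatal days 4, 8 and 21 (P4, P8 and P21), with no genotype, drug or other treatment named for any group. The protocol text writes another embryonic day in parentheses beside day 19, and the stage label E19 is followed here. At each stage tissue of several animals was combined, nuclei were purified on a sucrose cushion, and 1 library was made with 10x Genomics 3′ v3 chemistry, which tags each captured RNA molecule with a unique molecular identifier (UMI). With 1 pooled library per stage no comparison here has a replicate check, and no p-value is given. Every interval is a 95% interval for counting error only. In such pooled libraries a difference between stages cannot be told apart from a difference between dissections or preparations.

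The superior colliculus holds many GABA-releasing neurons, some of which act locally and some of which send axons to the thalamus and brainstem. They are made in the embryonic midbrain under the control of factors that include GATA2, GATA3 and their relatives, and they mature after birth while retinal and cortical axons settle in their layers. GABA is made by the enzymes GAD1 and GAD2 and loaded into vesicles by the transporter encoded by Slc32a1. Subtypes of these neurons are usually told apart by transcription factors, adhesion molecules and channels.

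The 4 libraries held between 2249 and 2585 nuclei and between 19277512 and 31325079 UMIs. Across libraries 9 cell barcodes recurred, none of them in IN6. The UMIs summed over IN6 nuclei came to 301564, 281258, 812154 and 630508 in order of stage, so the later pair of sums is the more precise. The median UMIs per IN6 nucleus were 5284.5, 6648.5, 10059 and 11369 in that order, against 6137, 7823, 9212 and 14286 in the other inhibitory nuclei. Levels below are counts per 1e+06 UMIs (CPM), the UMIs of a gene scaled to 1e+06 UMIs summed over the nuclei of a group in 1 library. They are not corrected for gene length, so they are compared between groups and not between genes.

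IN6 was present at every stage. It held 54 of 893 inhibitory nuclei at E19 (6.05%, exact binomial interval 4.58 to 7.82), 42 of 738 at P4 (5.69%, 4.13 to 7.62), 80 of 1088 at P8 (7.35%, 5.87 to 9.07) and 51 of 740 at P21 (6.89%, 5.17 to 8.96). The 4 intervals overlap. They cover counting error only, and with 1 library per stage a change in this share could not be judged. As a share of all neurons, IN6 was at 2.42% (1.82 to 3.15), 2.16% (1.56 to 2.91), 4.09% (3.26 to 5.07) and 3.59% (2.68 to 4.69), and there the intervals at P4 and P8 did not overlap. Both shares depend on how many of the other cells were captured. The highest share of inhibitory nuclei was 1.29 times the lowest, the smallest such ratio among the 12 subtypes, whose ratios reached 6.23 in IN1.

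**Figure D1:**
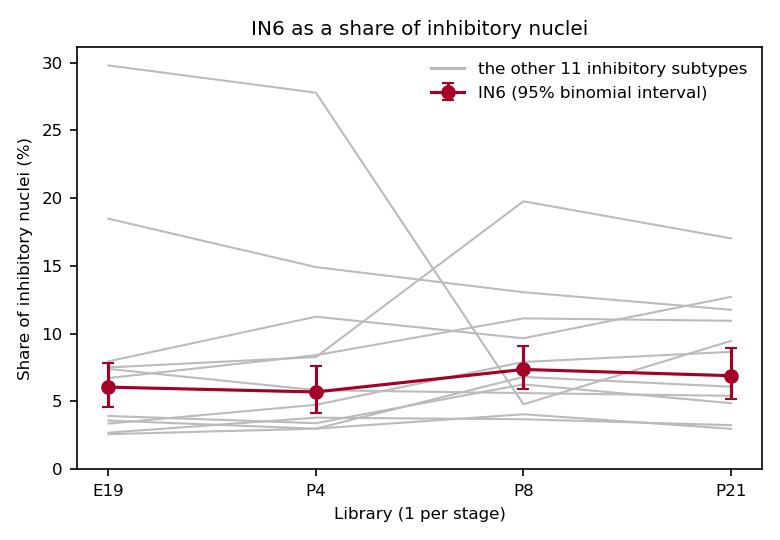
Share of inhibitory nuclei (%) that belong to IN6 in each library (red points with 95% binomial intervals) and to each of the other 11 subtypes (grey lines). IN6 lies between 5.69% and 7.35% in the 4 libraries, while some other subtypes change several-fold.

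Of the authors' reference labels, one followed IN6 closely. The label 15 of their transfer from the Vectorseq reference was on 224 of 227 IN6 nuclei (98.7%), and 95.7% of the nuclei with that label were IN6. Labels from the Transseq reference did not single IN6 out: 119 nuclei carried the label ISC5, 60 carried ESC2 and 48 carried ESC1. In the authors' clustering 217 IN6 nuclei (95.6%) lay in cluster 10, which also held 77 nuclei of IN8, 12 of IN2 and 6 of IN1. The other 10 IN6 nuclei lay in clusters 2, 3 and 5.

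IN6 nuclei held the markers of inhibitory neurons, with Gad2 toward the low end for the class. The authors' classes come from these same transcriptomes, so this is a description and no check of the label. At least 1 UMI of Gad1, Gad2 or Slc32a1 was found in 220 of 227 IN6 nuclei (96.9%, 93.7 to 98.8), against 98.1% of the other inhibitory nuclei, 35.2% of excitatory nuclei and 40.9% of oligodendrocyte lineage nuclei. Median depths over all stages were 7933 UMIs in IN6, 8859.5 in the other inhibitory nuclei, 11598 in excitatory nuclei and 5553 in the oligodendrocyte lineage. Gad2 stood at 335, 327, 291 and 300 CPM in IN6 at E19, P4, P8 and P21, against 569, 498, 457 and 370 in the other inhibitory nuclei. IN6 was thus last of the 12 subtypes for Gad2 at E19 and 11th at the later stages. Gad1 stood at 259, 206, 167 and 159 CPM in IN6 and at 284, 265, 291 and 240 in the others. The Gad1 ratio was 0.910 at E19, with an interval of 0.716 to 1.14, and 0.576 (0.481 to 0.684) at P8. The vesicular transporter Slc32a1 did not follow this pattern, at 123, 85.3, 59.1 and 92.0 CPM in IN6 and 110, 91.4, 54.4 and 77.4 in the others.

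Transmitter systems other than GABA were near background. The excitatory transporter Slc17a6 stood at 56.4, 24.9, 20.9 and 7.93 CPM in IN6 and at 45.8, 39.5, 19.7 and 8.34 in the other inhibitory nuclei. A UMI of any of the 3 vesicular glutamate transporters was present in 18.9% of IN6 nuclei, against 22.3% of the other inhibitory nuclei, 16.7% of the oligodendrocyte lineage and 87.9% of excitatory nuclei. The IN6 share thus lay within the range of nuclei that should lack these transporters. No UMI of the acetylcholine genes Chat and Slc5a7 or of the glycine transporter Slc6a5 was found in IN6 in any library, which allows up to 9.95, 10.7, 3.69 and 4.76 CPM in order of stage. Summed oligodendrocyte markers were at 73.0, 64.0, 61.6 and 292 CPM in IN6 and at 57.6, 62.7, 68.2 and 340 in the other inhibitory nuclei. Summed endothelial markers were at 0 in IN6 at E19 and P4, and at 7.39 and 3.17 CPM at P8 and P21.

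Against the other inhibitory nuclei of the same library, 30 genes were at least 2-fold higher in IN6 in all 4 libraries and 34 were at least 2-fold lower. That is 1.79% and 2.03% of the 1678 genes that reached 100 CPM on the higher side in every library, with ratios taken after adding 5 CPM to each side. By the same rule the subtypes had 4 to 49 genes higher and 17 to 67 lower, and IN6 ranked 5 and 7 among the 12 from the most. In single libraries the higher genes made up 4.22%, 3.76%, 4.02% and 3.1% in order of stage, and the lower genes were 4.77%, 3.76%, 4.21% and 4.1%. Because the subtypes were defined from these same transcriptomes, the genes that set IN6 apart are a description and not a test. Of the 30 higher genes, 16 were highest in IN6 among the 12 subtypes in all 4 libraries. The 20 genes with the largest difference in their least different library are described here. The last of them was Kit, at a lowest log2 ratio of 1.22, and the next gene was Luzp2, at 1.20.

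The secreted matrix protein gene Spon1, whose product F-spondin guides commissural axons, led the list. Spon1 was at 995, 729, 846 and 734 CPM in IN6 at E19, P4, P8 and P21, against 85.3, 53.9, 46.1 and 44.6 in the other inhibitory nuclei. The ratio was 11.7 (10.1 to 13.5) at E19 and 18.4 (16.3 to 20.7) at P8, and IN6 was highest of the 12 subtypes in each library. The next subtype was IN10, at 162, 250, 159 and 141 CPM. A Spon1 UMI was found in 94.4%, 92.9%, 97.5% and 100% of IN6 nuclei. When each nucleus was thinned to 2000 UMIs, the share was 81.5%, 69.0%, 75.0% and 66.7%, against 6.10% to 8.94% of the other inhibitory nuclei. Spon1 is not restricted to inhibitory neurons in these data, since 19.6% to 63.8% of thinned oligodendrocyte lineage nuclei also held it. A second secreted matrix gene, Smoc1, stood at 133, 132, 180 and 222 CPM in IN6 and at 47.4, 49.9, 45.6 and 23.6 in the others. Xylt1, whose enzyme adds the first sugar of proteoglycan chains, stood at 468, 391, 640 and 284 CPM against 136, 145, 112 and 75.4.

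Several of the leading genes encode transcription factors. Zeb2, a zinc-finger homeobox repressor, was at 2321, 1881, 1478 and 933 CPM in IN6 against 212, 184, 291 and 203, a ratio that went from 10.9 (9.94 to 12) at E19 to 4.60 (4.20 to 5.05) at P21. Dach1, a corepressor of the retinal determination family, was at 909, 732, 512 and 455 CPM against 104, 78.1, 58.1 and 71.7. Gli3, a transcription factor of the Hedgehog pathway, was at 411, 295, 257 and 170 CPM against 72.3, 27.5, 34.6 and 15.4. Gli3 was second to IN10 in each library, where it reached 615, 412, 378 and 239 CPM. Bcl11b, a zinc-finger factor of projection neurons elsewhere in the brain, was at 501, 274, 286 and 132 CPM against 102, 55.8, 56.5 and 37.1. Zeb2, Dach1 and Bcl11b were highest in IN6 among the 12 subtypes at all stages, though for Bcl11b at P21 IN8 was close, at 128 CPM. For Dach1 the next subtype was IN10, at 679, 235, 419 and 358 CPM. Differences of at least 2-fold in all libraries were also found for Foxp2, at 1343, 1138, 1054 and 1145 CPM against 497, 404, 524 and 403, and for its relative Foxp1, at 451, 313, 294 and 317 against 163, 147, 137 and 128. The GABAergic selector gene Gata3 stood at 318, 373, 251 and 157 CPM in IN6 and at 141, 117, 110 and 75.6 in the others.

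Channels, receptors and signalling genes made up much of the rest. Cacna2d1, an auxiliary subunit of voltage-gated calcium channels, was at 882, 626, 906 and 593 CPM in IN6 against 109, 93.7, 54.0 and 28.5. Its levels in excitatory nuclei were 1315, 977, 1303 and 1098 CPM. The IN6 level was carried by part of its nuclei, since 42.6%, 59.5%, 57.5% and 49.0% of them held a Cacna2d1 UMI at the 4 stages. Without the 43 IN6 nuclei that hold a UMI of a vesicular glutamate transporter, the mean log2 ratio of Cacna2d1 was 3.33, against 3.44 with them. Il1rapl2, a synaptic adhesion protein of the interleukin-1 receptor family, was at 2878, 2709, 2710 and 2934 CPM against 454, 437, 726 and 605. The highest other subtype was IN9, at 2910, 2604, 4710 and 4135 CPM. Kctd8, an auxiliary subunit of GABA-B receptors, was at 1187, 1301, 1301 and 1025 CPM against 386, 428, 387 and 290. Lgr5, a receptor for R-spondins, was at 133, 206, 188 and 270 CPM against 12, 37.0, 53.6 and 77.4, and Kit, the stem cell factor receptor, was at 172, 160, 129 and 121 against 52.7, 44.7, 52.6 and 19.1. IN10 exceeded IN6 for Lgr5 at P8 and P21, at 280 and 515 CPM, and IN9 exceeded it for Kit at all 4 stages.

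The remaining leading genes were Sgcd, Elmo1, Adcy2, Cpne4, Fam189a1, Frmd6, Pola1 and Gm2164. Sgcd, a sarcoglycan of the dystrophin complex, was at 2971, 2627, 3401 and 3228 CPM in IN6 and at 944, 844, 706 and 727 in the others. Elmo1, which acts with DOCK proteins to activate Rac, was at 527, 654, 794 and 1542 CPM against 179, 224, 294 and 484. Both were highest in IN6 at all stages. Cpne4 was higher in IN7 than in IN6 at E19, P4 and P21, and Fam189a1 was higher in IN10 than in IN6 at E19, P8 and P21. Gm2164, annotated as antisense RNA, was at 116, 206, 154 and 151 CPM against 15.5, 7.04, 12.1 and 13.1. It overlaps Pou3f1, which lies on the other strand, and the sources used here do not give whether reads were counted by strand. The kainate receptor subunit gene Grik3 was also among the 30 higher genes, at 328, 398, 382 and 362 CPM against 151, 129, 89.0 and 64.7.

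In the GRCm38 assembly, which the submitters' notes name as mm10, Spon1 spans chromosome 7, 113765998 to 114043370, on the plus strand. Cacna2d1 spans chromosome 5, 15934691 to 16374511 (plus), Zeb2 spans chromosome 2, 44983632 to 45117395 (minus), and Il1rapl2 spans chromosome X, 137570608 to 138846946 (plus). These spans include introns, from which nuclear RNA also gives reads. Of the 62 genes looked up in the GENCODE M21 annotation, 16 overlap no other gene, 34 overlap one transcribed in the same direction and 36 one transcribed in the other. Spon1 and Bcl11b were among the 16 without overlap.

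**Figure D2:**
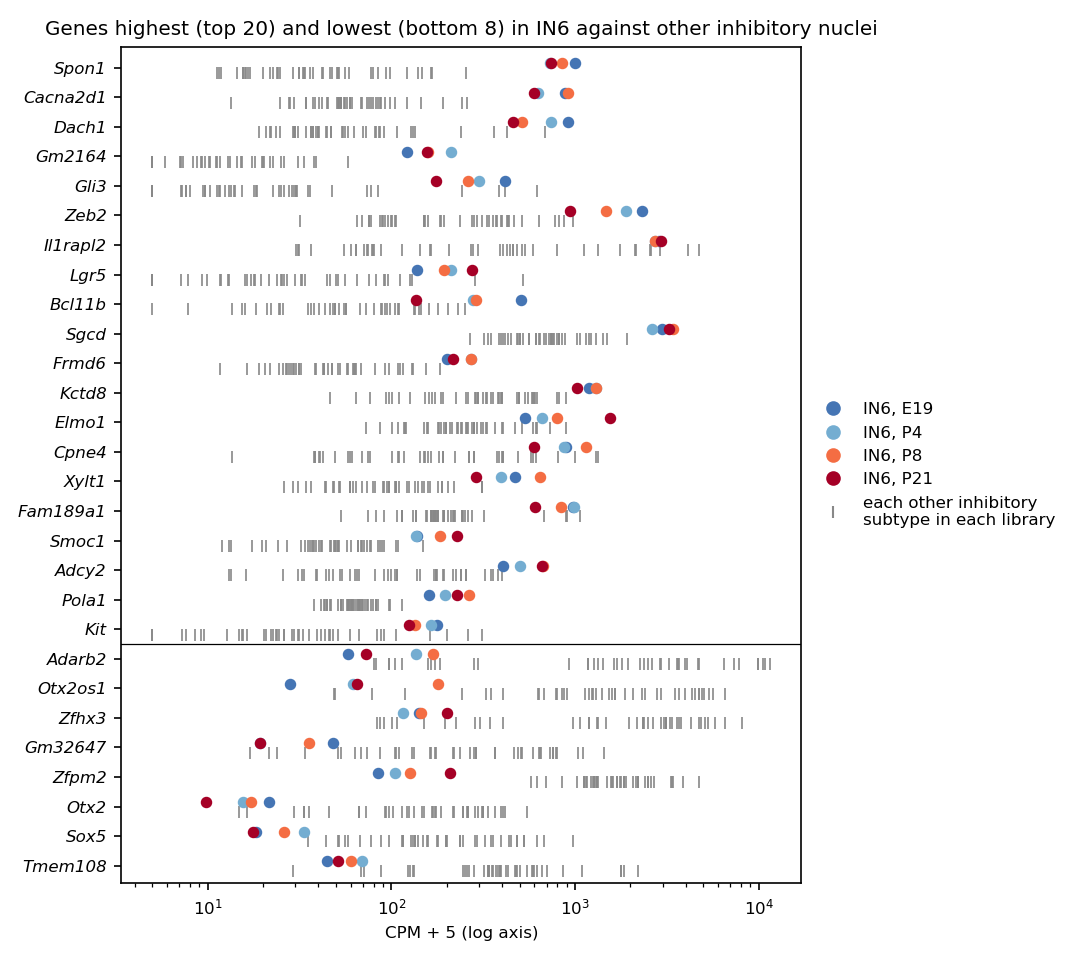
Levels (CPM + 5, log axis) of the 20 genes highest and the 8 genes lowest in IN6 relative to the other inhibitory nuclei; coloured points are IN6 in the 4 libraries and grey ticks are each other subtype in each library. Spon1 in IN6 (729 to 995 CPM) lies apart from all ticks, whereas Il1rapl2 and Gli3 are matched by IN9 and IN10.

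Of the 8 genes lowest in IN6, Zfpm2 and Sox5 were lower in IN6 than in each other subtype in all 4 libraries. The others were also low in some subtypes, such as Adarb2 in IN2, at 77.5, 91.7, 92.5 and 109 CPM, and Zfhx3 in IN8, at 192, 81.9, 96.0 and 78.4 CPM. Zfpm2 encodes FOG2, a cofactor of GATA factors, and stood at 79.6, 99.6, 122 and 205 CPM in IN6 against 1929, 1406, 1827 and 1466 in the other inhibitory nuclei. IN6 was last of the 12 subtypes for Zfpm2 in each library. The thinned share of nuclei with a Zfpm2 UMI was 13.8% to 20.4% in IN6, 76.3% to 87.8% in the other inhibitory nuclei and 20.8% to 23.5% in excitatory nuclei. Zfpm2 was therefore found in IN6 no more often than in excitatory nuclei. Otx2, a homeobox factor of midbrain patterning, stood at 16.6, 10.7, 12.3 and 4.76 CPM against 144, 106, 193 and 101. Its opposite-strand transcript Otx2os1 stood at 23.2, 56.9, 175 and 60.3 CPM against 1536, 1523, 2447 and 1035. These 2 genes overlap, and without knowledge of strand in the counting their reads cannot be assigned with certainty.

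Zfhx3, a zinc-finger homeobox factor, was at 136, 110, 140 and 195 CPM in IN6 against 2422, 1776, 2078 and 1485. Sox5, an SRY-box factor of neuronal fate, was at 13.3, 28.4, 20.9 and 12.7 CPM against 247, 218, 276 and 248, the lowest level of the 12 subtypes in each library. Adarb2, a member of the RNA editing enzyme family with no known editing activity of its own, was at 53.1, 132, 164 and 68.2 CPM against 2584, 2573, 2410 and 1880. Some of these genes were higher in the few nuclei outside the main cluster. In the 10 IN6 nuclei outside cluster 10, summed over the libraries, Adarb2 was at 736 CPM, against 83.7 in the 217 inside it. Otx2os1 was at 1219 against 47.6 CPM and Zfhx3 at 505 against 136 in the same split, while Spon1 was at 527 against 831. The remaining 2 of the 8 lowest genes were Tmem108, at 39.8, 64.0, 55.4 and 46 CPM against 394, 418, 705 and 653, and the non-coding Gm32647.

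Members of the same families lay on opposite sides. Among the ZEB repressors, Zeb2 was high and Zeb1 was low in IN6, at 116, 81.8, 149 and 200 CPM against 302, 315, 458 and 687. IN6 was last of the 12 subtypes for Zeb1 in each library. Among the calcium channel subunits, Cacna2d1 was high and Cacna2d3 was low, at 33.2, 32.0, 30.8 and 189 CPM against 607, 467, 367 and 440. Gata3 was high, while the GATA cofactor gene Zfpm2 was low. The other genes lower in IN6 included the transcription factor genes Nfib, Tcf4 and Zfhx4, the cadherins Cdh12 and Cdh18, the adhesion molecules Opcml, Ntng1 and Lrrc4c, and Reln, which encodes the secreted protein reelin.

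The subtypes with the most similar profile were IN2, IN8 and IN1. Over 2680 to 3242 genes per library the mean Pearson correlation of log2 levels with IN6 was 0.868 for IN2, 0.861 for IN8 and 0.860 for IN1, and it fell to 0.730 for IN12. These values are a description across genes, and the larger subtypes have more precise profiles. The same 3 subtypes led in each library alone. Relative to IN2, 40 of 1631 genes were at least 2-fold higher in IN6 in all 4 libraries (2.45%) and 41 were lower (2.51%), led by Spon1 and Gli3 on one side and by Zfhx3 and Zfpm2 on the other. Relative to IN8, with which it shares cluster 10, 33 of 1633 genes were higher (2.02%) and 36 were lower (2.2%). The lower genes were led by Nfib, a nuclear factor of neuronal and glial maturation, at 53.1, 32.0, 32.0 and 12.7 CPM in IN6 and 1384, 774, 762 and 677 in IN8. Relative to IN1, 40 of 1674 genes were higher (2.39%) and 44 were lower (2.63%). Lef1, a transcription factor of the Wnt pathway, was at 686, 807, 735 and 566 CPM in IN6 and at 28.1, 57.7, 88.2 and 46.7 in IN1.

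Within IN6 the nuclei were not alike. Counts of Il1rapl2 per nucleus fell into a high and a low set with few nuclei between them: 116 nuclei held 10 or more UMIs (51.1%), 93 held 2 or fewer (41.0%), and 18 held 3 to 9 (7.93%). This split was chosen after the values were seen, and what follows from it is a description of these nuclei. Both sets were present in each library, with 24, 19, 44 and 29 high nuclei and 27, 20, 30 and 16 low nuclei at E19, P4, P8 and P21. The median UMIs per nucleus were 5537.5, 7310, 9662 and 13927 in the high set. In the low set they were 5057, 6033, 9851 and 8780, so it was the shallower set except at P8, most of all at P21. The split used UMIs not scaled to depth, so a shallow nucleus could fall into the low set. For example, low nuclei with 2655, 3243 and 2834 UMIs held 18, 10 and 12 Cacna2d1 UMIs, a gene higher in the high set. In nuclei thinned to 2000 UMIs, an Il1rapl2 UMI remained in 50%, 64.3%, 66.2% and 72.5% of IN6. The ISC5 label was on 59 of the high and 50 of the low nuclei, and 5 nuclei of each set lay outside cluster 10. Other subtypes also held nuclei with 10 or more Il1rapl2 UMIs, from 0 of 215 in IN7 to 125 of 173 in IN9.

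**Figure D3:**
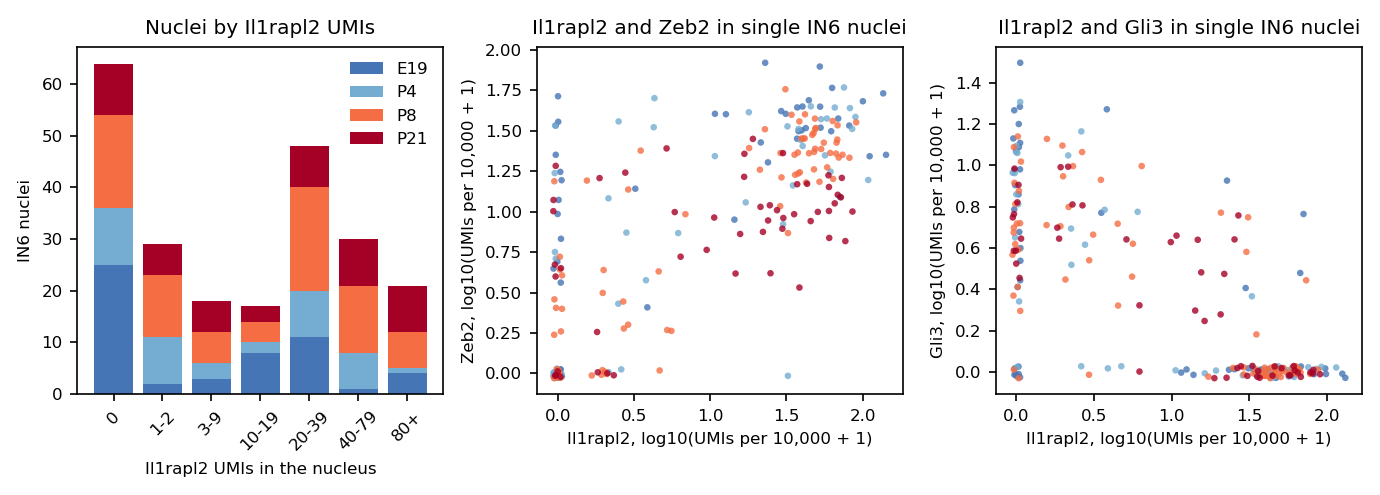
IN6 nuclei counted by their Il1rapl2 UMIs (left, stacked by library), and the depth-scaled levels of Il1rapl2 against Zeb2 (middle) and Gli3 (right) in single nuclei, on log10 axes after adding 1. The 18 nuclei with 3 to 9 UMIs lie between the 93 low and 116 high nuclei, Zeb2 is mostly high where Il1rapl2 is high, and Gli3 is mostly found where Il1rapl2 is low.

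Many other genes went with Il1rapl2. Of 1623 genes, 35 (2.16%) were at least 2-fold higher in the high set than in the low set in all 4 libraries, and 36 (2.22%) were at least 2-fold lower. Without the P21 library, which has 16 low nuclei, the second count was 59. The 12 genes most apart on each side are described here, and the next gene stood at a lowest log2 ratio of 1.71 on the high side and -1.83 on the low side.

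The 12 genes of the high set had varied roles. Nrp2, a receptor for class 3 semaphorins, was at 454, 390, 538 and 224 CPM in the high set, against 61.0, 82.4, 13.5 and 0 in the low set. Sema6d, a transmembrane semaphorin, was at 1781, 1338, 1801 and 696 CPM against 467, 305, 128 and 13.6, and Ptprk, an adhesive receptor phosphatase, was at 369, 474, 669 and 318 against 81.3, 115, 6.74 and 20.4. Pcdh15, a protocadherin known from hair cells, was at 1370, 2119, 2116 and 1596 CPM against 379, 527, 283 and 170. The signalling genes included Plce1, a phospholipase C, at 163, 160, 254 and 173 CPM against 20.3, 16.5, 27.0 and 13.6. Inpp4b, a phosphoinositide phosphatase, was at 1171, 1526, 1855 and 1906 CPM against 149, 132, 263 and 462, and Dpp10, which modulates A-type potassium channels, was at 2243, 2579, 2362 and 1713 against 339, 601, 576 and 441. Car10, Mmp16, Rasgef1b, Parp8 and Pard3b completed the set. In none of these genes did the high and low set overlap between libraries. They were picked by the difference in their least different library, so a separation within each library was fixed by the choice.

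The low set carried the factors Gli3, Bcl11b and Rorb. Gli3 was at 786, 642, 529 and 489 CPM in the low set and at 56.8, 6.97, 42.8 and 53.7 in the high set. Bcl11b was at 874, 511, 590 and 394 CPM against 142, 76.7, 58.5 and 35.0. Rorb, a retinoid-related orphan receptor, was at 1714, 469, 1220 and 733 CPM against 71.0, 62.7, 128 and 126. At least 3 UMIs of Gli3 were present in 60 of 93 low nuclei (64.5%) and in 9 of 116 high nuclei (7.76%). The same minimum for Bcl11b was met by 60 low and 10 high nuclei, and for Rorb by 57 low and 18 high nuclei. After thinning, the share with a Gli3 UMI was 62.4% in the low set and 8.62% in the high set, so the order was the same at equal depth. Tmem132d, a membrane protein gene, was at 2865, 1903, 2150 and 971 CPM in the low set and at 56.8, 76.7, 96.8 and 93.5 in the high set. Egfem1, at 969, 857, 1307 and 930 CPM against 28.4, 13.9, 63.0 and 39.7, and Kcnab1, a potassium channel beta subunit, at 400, 387, 313 and 978 against 7.10, 27.9, 18 and 105, followed the same order. St6galnac5, Nkain3, Tshz2, Gas7, Fstl4 and Gm2164 made up the rest.

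**Figure D4:**
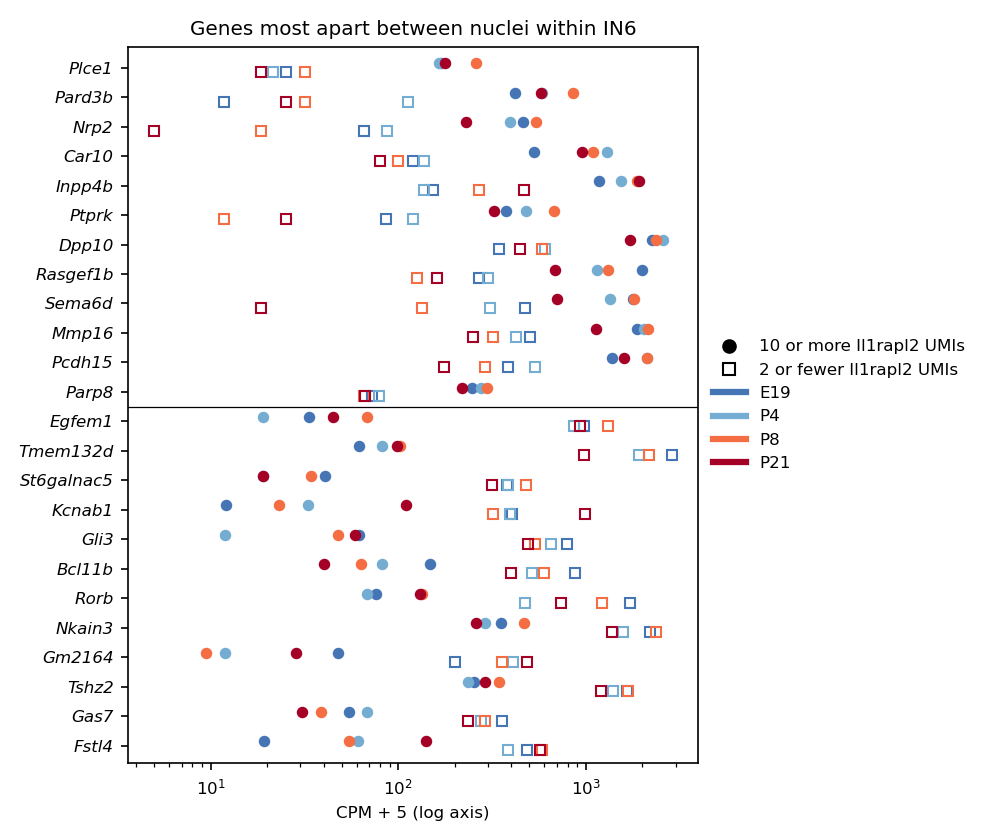
Levels (CPM + 5, log axis) of the 12 genes highest and the 12 genes lowest in IN6 nuclei with 10 or more Il1rapl2 UMIs (filled circles) relative to those with 2 or fewer (open squares), coloured by library. The circles and squares of Gli3, at 6.97 to 56.8 and 489 to 786 CPM, do not overlap in any library, and the same holds for the other genes shown. The genes were picked by the difference in their least different library, which fixed this.

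Many genes that set IN6 apart passed the 2-fold rule against the other inhibitory nuclei in a single set. Compared directly between the sets, with Il1rapl2 left out, 4 of the 30 genes were called higher in the high set and 3 lower. Passing in a single set is thus not by itself a difference between the sets. Of the 30 genes higher in IN6, which include Il1rapl2 itself, 7 were at least 2-fold above the other inhibitory nuclei in both sets and in all 4 libraries: Spon1, Dach1, Kctd8, Xylt1, Cpne4, Adcy2 and Fam189a1. Spon1 was at 1228, 892, 1013 and 722 CPM in the high set and at 799, 585, 640 and 699 in the low set. A further 17 genes met the rule in the high set alone, among them Il1rapl2, for which the split fixed this, and Cacna2d1, Gata3 and Zeb2, and 6 in the low set alone, Gli3, Bcl11b, Grik3, Frmd6, Luzp2 and Gm2164. Cacna2d1 was at 1597, 955, 1603 and 783 CPM in the high set and at 163, 313, 74.1 and 67.9 in the low set. It was carried by part of the high set, since 51 of 116 high nuclei (44.0%) and 7 of 93 low nuclei (7.53%) held at least 3 Cacna2d1 UMIs. Zeb2 was at 3975, 2809, 2438 and 1033 CPM against 698, 890, 246 and 550, and Gata3 was at 532, 530, 383 and 178 against 94.8, 156, 94.3 and 74.7. Of the 34 genes lower in IN6, 19 were at least 2-fold below the other inhibitory nuclei in both sets. These 19 included Adarb2, Otx2, Otx2os1, Zfhx3, Zfpm2 and Sox5. A further 12 met the rule in the high set alone and 3, Cacna2d3 among them, in the low set alone. The opposition of Cacna2d1 and Cacna2d3 over all IN6 nuclei was thus met by the 2-fold rule in neither set.

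No transmitter gene was called between the 2 sets by the same rule, which asks for 2-fold and 100 CPM in all 4 libraries. Gad2 was at 334, 293, 272 and 290 CPM in the high set and at 345, 362, 307 and 319 in the low set, and Gad1 at 248, 125, 142 and 131 against 257, 280, 222 and 217. Gad1 was thus lower in the high set in each library, most of all at P4. The mean correlation of the high with the low profile was 0.824, against 0.837 of the high set with IN2 and 0.828 of the low set with IN8. Sums over few nuclei lower such correlations, and the sets are smaller than those subtypes.

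Counts within lists of gene families are read against the 1.79% of all genes that were higher and 2.03% that were lower in IN6, and medians against a log2 ratio of -0.05 over all genes. For receptors of fast transmitters the counts were near that background. None of the 13 GABA and glycine receptor genes at or above the minimum passed the 2-fold rule in all libraries (median 0.02). Gabra2, the alpha 2 subunit of GABA-A receptors, was nonetheless at 1054, 640, 601 and 251 CPM in IN6, against 262, 236, 260 and 262 in the other inhibitory nuclei. IN6 was thus first of the 12 subtypes for Gabra2 up to P8 and eighth at P21. The beta 2 subunit gene Gabrb2 was below the others at each stage, at 136, 107, 98.5 and 111 CPM against 235, 222, 199 and 299. Of 20 glutamate receptor genes, Grik3 was higher and none was lower (median 0.04). The AMPA receptor subunit gene Gria2, at 1943, 1881, 1671 and 1055 CPM against 865, 945, 949 and 843, was highest in IN6 among the subtypes in each library but was 2-fold higher at E19 alone.

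Transcription factors and surface molecules gave these counts, beside the 1.79% and 2.03% of all genes. Of 26 neuronal transcription factors outside the midbrain selector list, 4 were higher (Zeb2, Foxp1, Foxp2 and Bcl11b) and 6 were lower (Nfib, Zeb1, Tcf4, Sox5, Zfhx3 and Zfhx4), with a median log2 ratio of -0.17. Of 5 midbrain selector genes, Gata3 was higher, and Otx2 and Zfpm2 were lower (median -0.35). Pax7, a paired-box factor of the dorsal midbrain, passed neither way, at 186, 117, 103 and 105 CPM against 122, 97.4, 112 and 52.8. Of 46 synapse organisers, Il1rapl2 was higher and Lrrc4c lower (median -0.04). Of 40 axon guidance genes, Ntng1 alone passed, on the lower side (median -0.01), and of 18 cadherins Cdh12 and Cdh18 were lower (median -0.12). None of 15 potassium channel genes passed (median -0.02), and of 21 sodium, calcium, HCN and TRP channel genes Cacna2d1 was higher and Cacna2d3 lower (median -0.03). The counts of synapse organisers, axon guidance genes and channels were near the share of all genes. No count was tested. Each median is taken over the members with UMIs in every library.

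Of the lists of neuropeptides and of neuromodulator receptors, 1 and 3 genes reached the minimum, and none passed the rule. The secretogranin gene Scg2 was at 129, 107, 51.7 and 144 CPM in IN6 against 44.3, 50.8, 20.9 and 79.1, the highest of the 12 subtypes in each library. Somatostatin (Sst) was at 63.0, 42.7, 19.7 and 15.9 CPM against 240, 60.8, 33.6 and 21.2. Oprk1, the kappa opioid receptor gene, was at 6.63, 42.7, 73.9 and 79.3 CPM in IN6 against 5.12, 11.8, 9.93 and 14.8. It was highest of the 12 subtypes at P4, P8 and P21, and it was found mainly in the high Il1rapl2 set, at 7.10, 76.7, 135 and 100 CPM against 6.77, 0, 0 and 13.6. Calb1, the calcium buffer calbindin, rested on few UMIs and was at 6.63, 17.8, 28.3 and 58.7 CPM against 6.18, 10.8, 6.43 and 5.72.

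Across stages, genes of immature neurons fell in IN6 and genes of excitability rose. From E19 to P21, 289 of 2435 genes were at least 2-fold higher (11.9%) and 302 at least 2-fold lower (12.4%), against 7.65% and 9.71% in the other inhibitory nuclei, whose sums are larger. Of 25 immature neuron genes at or above the minimum, 21 were at least 2-fold lower at P21 and none was higher. The median log2 ratio over the list's members with a UMI was -2.68, against -0.00 over all genes. The median percent of mitochondrial UMIs also differed between the libraries, at 0.772, 0.943, 0.328 and 0.253 in IN6 nuclei and 0.717, 0.812, 0.342 and 0.185 in the other inhibitory nuclei, and its part in these changes was not tested. Tubb2b, a tubulin of growing neurons, went from 892 through 558 and 156 to 11.1 CPM, and Nnat, which encodes neuronatin, went from 1064 through 661 and 281 to 20.6. The other inhibitory nuclei went from 879 to 4.59 CPM for Tubb2b and from 1039 to 22.8 for Nnat, so both groups moved alike. Fabp7, a fatty acid binding protein of immature cells, went from 255 CPM at E19 to 0 UMIs at P21, at least 53.7-fold lower against a floor of 3 UMIs in the library. Tubb5 and Tmsb10 completed the 5 largest falls.

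Of 21 maturation genes at or above the minimum, 10 were at least 2-fold higher at P21 and none was lower (median 0.82). They included Grin1 and Grin2a, subunits of NMDA receptors, the sodium channel gene Scn1a and the chloride exporter gene Slc12a5. Grin2a went from 133 to 614 CPM in IN6 and from 330 to 793 in the others. The largest rise was that of Rasgrf1, a calcium-activated exchange factor for Ras, which went from 0 UMIs at E19 through 39.1 and 89.9 to 555 CPM, at least 55.8-fold higher. In the other inhibitory nuclei Rasgrf1 went from 31.3 to 517 CPM. Htr2c, a serotonin receptor, went from 103 to 928 CPM in IN6 and from 131 to 492 in the others. Thrb, a thyroid hormone receptor, went from 6.63 to 281 CPM in IN6 and from 82.5 to 397 in the others.

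Single steps held fewer genes. From E19 to P4, 92 of 2291 genes were at least 2-fold higher (4.02%) and 50 lower (2.18%). From P4 to P8, 9 of 2200 were higher (0.409%) and 45 lower (2.05%), and from P8 to P21, 77 of 2253 were higher (3.42%) and 97 lower (4.31%). In the other inhibitory nuclei 0.286%, 0.346% and 2.88% of genes were higher in the 3 steps, and 0.714%, 0.297% and 2.79% were lower. Such shares move with depth, and IN6 ranked between 6 and 10 among the 12 subtypes in them, with a rank of 7 or 8 in summed UMIs. The P4 to P8 counts were 15 higher and 37 lower when libraries were scaled by the median of ratios.

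Of the genes with the largest steps, Ttr moved the same way in all inhibitory subtypes. Ttr, the transthyretin gene of the choroid plexus, went from 0 to 43 UMIs (153 CPM) in IN6 between E19 and P4 and back to 1 UMI at P8. In the other inhibitory nuclei it went from 0 to 93 and to 0.584 CPM, and in the oligodendrocyte lineage the summed choroid plexus markers reached 445 CPM at P4. The part of free RNA in this was not tested. From E19 to P4 the rises of AC149090.1, Cit, Arhgap26 and Wwc2 followed, and Ptma, Maml3, Tcf4 and Meis2 fell. From P8 to P21, BC030499 went from 0 to 72 UMIs, at least 30.9-fold higher, and Naaladl2, Gm13629 and Specc1 followed. From P4 to P8 the largest rises were those of Otx2os1, Dync1i1, Rorb, Me3 and Lncpint, and beside Ttr the genes Hmgcs1, Tubb2b, Pcdh8 and Tubb5 fell most. Otx2os1 went the same way in 5 of the other subtypes, and Rorb and Lncpint did so in 8. The Otx2os1 value at P8 rests on 1 nucleus with 93 of its 142 UMIs, and its log2 ratio went from 1.54 to -0.15 without the 10 nuclei outside cluster 10.

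Some of the named steps were larger in IN6 than in each other subtype. From E19 to P4 this held for Arhgap26, Wwc2, Rorb, Ptma, Maml3 and Tcf4. It also held for Dync1i1, Rorb, Lncpint, Hmgcs1, Tubb2b and Pcdh8 from P4 to P8, and for Naaladl2 and Adamtsl1 from P8 to P21. The choice of genes favours this, since they were named for the largest steps in IN6. Some rest on few UMIs, with 7 for Wwc2 at E19 and 14 and 10 for Maml3 and Tcf4 at P4. For Lncpint the margin was thin, at a log2 ratio of 1.33 against up to 1.32 in the other subtypes. Adamtsl1, a secreted protein of the ADAMTS-like family, was at 186, 153, 193 and 4.76 CPM in IN6 and at 117, 151, 241 and 224 in the other inhibitory nuclei. Its log2 ratio from P8 to P21 was -4.35 in IN6 and -0.10 in the others, and the other subtypes lay between -2.90 and 0.10. The P21 value rests on 3 UMIs, with an interval of 0.981 to 13.9 CPM. Rorb was at 872, 235, 676 and 257 CPM in IN6 and at 213, 162, 254 and 166 in the others. The low Il1rapl2 set carried this up-and-down course, at 1714, 469, 1220 and 733 CPM. Within that set the share of nuclei with at least 3 Rorb UMIs also varied, at 59.3%, 35%, 80% and 62.5%, with 20 low nuclei at P4. The low set held 27 of 54 IN6 nuclei at E19 and 16 of 51 at P21. The part of these shares in the course over all IN6 was not tested. Dync1i1, a dynein intermediate chain of neurons, was at 23.2, 107, 315 and 493 CPM in IN6 against 99.8, 205, 244 and 473.

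**Figure D5:**
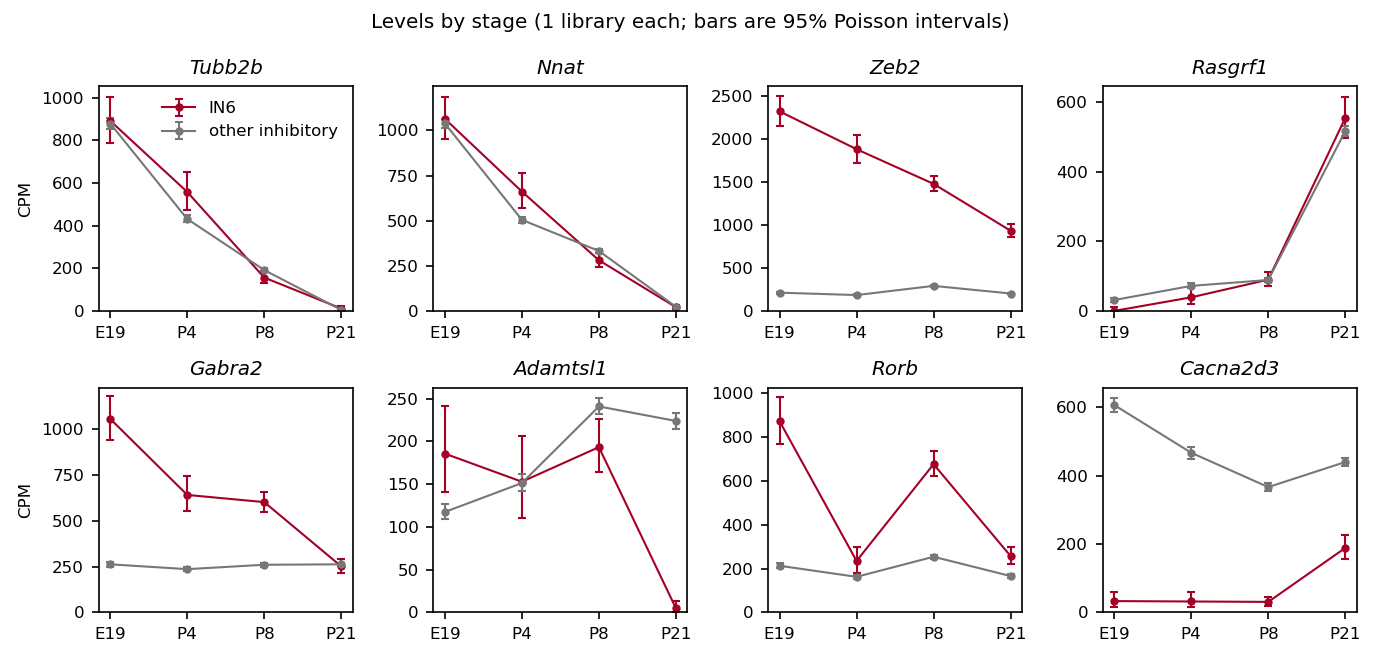
Levels (CPM) of 8 genes in the library of each stage in IN6 (red) and in the other inhibitory nuclei (grey), with 95% Poisson intervals on each point. Tubb2b and Nnat change alike in both groups, Rasgrf1 goes from 0 to 555 CPM in IN6 and from 31.3 to 517 in the others, Zeb2 stays above the others while going from 2321 to 933 CPM, and Adamtsl1 is at 4.76 CPM at P21 in IN6 but at 224 in the others.

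Some of the genes that set IN6 apart also changed with stage. From E19 to P21 the log2 ratio of Zeb2 was -1.31 in IN6 and -0.07 in the others, and that of Bcl11b was -1.89 and -1.35. Gli3 was at -1.25 in IN6 and -1.92 in the others, so its difference between the groups was wider at P21 on this scale, whereas that of Zeb2 was narrower. Within the set in which each was high, Zeb2 went from 3975 to 1033 CPM and Bcl11b from 874 to 394. Il1rapl2 (0.03) and Foxp2 (-0.23) changed less, and Spon1 went from 995 to 734 CPM. Lmo1, a LIM-only factor, went from 275 to 19.0 CPM in IN6 and was nearly confined to the low Il1rapl2 set, at 535, 305, 303 and 74.7 CPM against 21.3, 13.9, 20.3 and 0. Per nucleus thinned to 2000 UMIs, the median number of the 20 leading genes with a UMI was 9, 10, 11 and 10 in IN6. It was 3, 3, 4 and 4 in the other inhibitory nuclei. These genes were picked as the most raised in IN6 in these same nuclei, so a higher number there was fixed by the choice. No IN6 nucleus held fewer than 5, but single nuclei of the other inhibitory subtypes reached 11, 9, 9 and 11, so the ranges overlapped.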

How the data were processed

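The superior colliculus of C57BL/6J mice was profiled by single-nucleus RNA sequencing in 4 libraries, 1 per stage. Per the submitters' processing notes, reads were processed with Cell Ranger 3.0.2 on mm10, and a reference of unspliced transcripts was used per the series' design text. The values used are the UMI counts per gene and nucleus that the authors deposited, with their metadata, which give stage, class, subtype, reference labels and the percent of mitochondrial UMIs per nucleus, as the authors deposited it. Filters on nuclei, the treatment of doublets and the strand and overlap settings of the counting are not given in the sources used here, and no doublet caller was run. The deposited barcodes, UMI totals and gene totals matched the matrix in all 9724 nuclei. A further 4 per-nucleus columns were not used.

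UMIs were summed over the nuclei of a group in each library and expressed as CPM. Ratios used log2(CPM + 5), and a gene was called at 2-fold or more, with at least 100 CPM on the higher side (50 CPM within gene lists for naming). Levels carry exact Poisson intervals, ratios conditional binomial intervals and shares exact Clopper-Pearson intervals, all at 95% and for counting error only. A count of 0 was bounded with 3 UMIs per library. Thinned shares drew 2000 UMIs per nucleus without replacement. Depth per library and for IN6 is given with the results. With 1 library per stage no test was made, and the script was tested on simulated data.

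Named genes were the 20 with the largest lowest ratio of IN6 to the other inhibitory nuclei over the libraries and the 8 with the lowest highest ratio; the 5 largest rises and falls per step and from E19 to P21; the 3 highest and lowest and the 2 largest rises and falls within each list; and Gad1, Gad2, Slc32a1, Slc17a6 and Pax7. Mitochondrial, ribosomal, haemoglobin and sex-specific genes were left out of the ranking, and some genes the rule picked are not reported here. Further genes were chosen after their values were seen, as were the split by Il1rapl2 and the 12 genes on each side of it. The members and lists were chosen with earlier results of these data known. Gene positions come from GENCODE M21 (GRCm38), which held 31011 of 31053 gene identifiers. Alternatives changed the pseudocount (1 and 20 CPM), minimum, scaling, comparator, thinning and the libraries used. Computations used Python 3.11.15, numpy 2.4.6, scipy 1.17.1, pandas 2.3.3 and matplotlib 3.10.9.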

Additional observations from a re-analysis of the deposited data

Results flagged for a closer look

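For 5 of the 64 genes at least 2-fold apart between IN6 and the other inhibitory nuclei, the change from E19 to P21 was at least 2-fold in IN6 and went the other way in the rest, with both counting intervals away from no change. The difference between the changes was not tested, since each stage has 1 library. Reln had a log2 ratio of -3.22 in IN6, from 86.2 to 4.76 CPM, and 0.79 in the others, from 185 to 324. Gm32647 had -1.32 in IN6 and 0.32 in the others. Cacna2d3 had 2.34 in IN6, from 33.2 to 189 CPM, and -0.46 in the others. The Cacna2d3 level at P21 was 266 CPM in the high and 13.6 CPM in the low Il1rapl2 set, and 31 UMIs came from 1 nucleus. Zfpm2 had 1.31 in IN6, from 79.6 to 205 CPM, and -0.39 in the others, with 57 UMIs in 1 nucleus at P21. Otx2os1 had 1.21 in IN6 and -0.57 in the others.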

How the results depend on the processing

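Counts of genes past the 2-fold rule moved most with the minimum level and with thinning, and the cause was not tested. At a minimum of 50 CPM, no minimum and thinning to 2000 UMIs, in that order, the genes higher at P4 than at E19 numbered 242, 1202 and 235, and those lower 183, 1183 and 210. A pseudocount of 20 CPM left 28 lower. From P4 to P8 the counts were 52, 614 and 132 higher and 126, 769 and 200 lower, with 15 higher under median-of-ratios scaling and 15 with each nucleus weighted alike. From P8 to P21 they were 185, 648 and 234 higher and 195, 739 and 212 lower. With no minimum, 88 genes were lower in IN6 than in the other inhibitory nuclei in every library. Leaving out 1 library in turn gave 31 to 42 higher and 38 to 46 lower genes for IN6 against the others, and 41 to 48 higher and 38 to 59 lower between the Il1rapl2 sets, the 59 without P21. With fewer libraries to pass, these counts can only rise. As a share of all neurons, IN6 made up 2.42%, 2.16%, 4.09% and 3.59% at E19, P4, P8 and P21. Otx2os1 from P4 to P8 within IN6 reversed to a log2 ratio of -0.15 without the 10 nuclei outside cluster 10. Of the alternatives for single named genes, 154 moved by more than the counting interval, 1349 did not, and this was the 1 reversal. No paired analysis was possible because each stage has 1 library. Levels near 10 CPM are at the limit of what the E19 and P4 sums can resolve, where 3 UMIs amount to 9.95 and 10.7 CPM.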
